A study of Mus musculus with 4 samples.

Results

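Shared binding sites of Flag-tagged Nynrin that lie near genes, but away from the ends of genes, are described here. A member is a replicate 1 peak on chromosomes 1 to 19 that overlapped a replicate 2 peak by at least 1 bp. Members were thus selected on the peak calls of both libraries and on position, not on the strength of a peak. The summit, the base of highest enrichment within the peak, lay more than 1000 bp and at most 10000 bp from the closest end of any protein-coding gene. The summit also lay more than 1000 bp from the ends of all other annotated genes. The rule selected 2200 of the 11266 shared peaks, or 19.5%. The other shared peaks comprised 6225 with a summit within 1000 bp of a protein-coding gene's end, 1181 deeper inside genes, 1021 farther out between genes and 639 at the ends of other genes.

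Nynrin was mapped by chromatin immunoprecipitation and sequencing (ChIP-seq) in lineage-negative bone marrow cells, the fraction depleted of mature blood cells that contains stem and progenitor cells. The 2 Flag ChIP libraries and the 2 input libraries, which hold fixed chromatin without immunoprecipitation, all came from 8 weeks old C57BL/6 mice of the genotype 3xFlag-Nynrin-Tg. Every library therefore carried the transgene, and no Flag ChIP from cells without the tag was analysed here. The promoter of the transgene and whether the replicates came from separate animals are not given in the sources used here. Peak lists hold no expression values, so the lineage-negative label could not be checked against marker genes. The lists also hold no read totals, so the sequencing depth is unknown.

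Transcription of a gene often begins at more than 1 start, and an alternative promoter inside a gene gives a shortened transcript. Enhancers, which are bound by transcription factors and raise transcription from a distance, lie both within introns and between genes. Nynrin carries an NYN domain, a fold found in ribonucleases, together with retrovirus-derived integrase-like sequence. Mammalian promoters rich in CpG dinucleotides usually lack a TATA box and often carry binding letters for ETS, NRF1, YY1, CREB and E-box factors.

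Among members on the chromosomes that the RefSeq promoter table covers, 383 of 2157 (17.8%) had a summit within 500 bp of an annotated start, although all lay over 1000 bp from gene ends. The 6 sequences that follow show what such starts look like. They are windows of 4 high-scoring members and the next 2 windows that hold the ETS letters. The score is the lower of the percentiles that a member's enrichment reaches in the 2 libraries. Members at an annotated start at Trim41, Zc3hav1, Cetn3 and Ing1 scored above the member at Rnf44 and are not shown. Each window runs from 250 bp before to 50 bp after a start that lay over 1000 bp from gene ends, and lies wholly within the peaks of both replicates. They come from RefSeq on GRCm38.p6, read 5′ to 3′ on the strand of the gene. Capitals mark the letters CCGGAAGT (ETS), TGACGTCA (CRE), CACGTG (E-box) and CCAAT on either strand. The coordinates are chr17:65613506-65613805 for Vapa on the minus strand, chr11:116024455-116024754 for H3f3b on the minus strand and chr1:37865033-37865332 for Tsga10 on the minus strand. The other windows are chr13:54687759-54688058 for Rnf44 on the minus strand, chr7:101896081-101896380 for Anapc15 on the plus strand and chr10:62651169-62651468 for Ddx50 on the minus strand.
Vapa: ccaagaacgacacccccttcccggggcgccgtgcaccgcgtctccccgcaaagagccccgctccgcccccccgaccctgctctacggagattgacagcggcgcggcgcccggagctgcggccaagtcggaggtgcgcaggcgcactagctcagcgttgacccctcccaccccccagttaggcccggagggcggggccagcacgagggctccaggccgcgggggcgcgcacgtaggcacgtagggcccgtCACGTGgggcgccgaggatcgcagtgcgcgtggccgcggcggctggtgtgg
H3f3b: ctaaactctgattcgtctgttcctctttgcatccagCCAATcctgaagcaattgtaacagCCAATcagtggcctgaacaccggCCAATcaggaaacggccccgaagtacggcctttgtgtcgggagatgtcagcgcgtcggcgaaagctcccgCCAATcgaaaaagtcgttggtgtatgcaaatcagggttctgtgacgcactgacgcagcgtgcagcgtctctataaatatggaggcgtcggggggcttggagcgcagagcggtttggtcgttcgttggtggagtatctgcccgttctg
Tsga10: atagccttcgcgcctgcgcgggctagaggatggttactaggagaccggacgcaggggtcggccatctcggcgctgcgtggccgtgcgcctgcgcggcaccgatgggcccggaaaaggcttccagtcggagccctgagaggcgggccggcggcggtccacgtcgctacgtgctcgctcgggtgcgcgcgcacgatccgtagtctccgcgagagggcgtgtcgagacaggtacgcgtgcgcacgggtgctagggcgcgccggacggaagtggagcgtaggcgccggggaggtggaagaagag
Rnf44: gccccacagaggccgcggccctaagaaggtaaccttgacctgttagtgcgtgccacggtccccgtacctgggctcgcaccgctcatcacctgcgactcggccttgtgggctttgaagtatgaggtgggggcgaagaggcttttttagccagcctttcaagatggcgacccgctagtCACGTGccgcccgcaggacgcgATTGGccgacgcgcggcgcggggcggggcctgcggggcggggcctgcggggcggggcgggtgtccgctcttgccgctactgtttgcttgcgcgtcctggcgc
Anapc15: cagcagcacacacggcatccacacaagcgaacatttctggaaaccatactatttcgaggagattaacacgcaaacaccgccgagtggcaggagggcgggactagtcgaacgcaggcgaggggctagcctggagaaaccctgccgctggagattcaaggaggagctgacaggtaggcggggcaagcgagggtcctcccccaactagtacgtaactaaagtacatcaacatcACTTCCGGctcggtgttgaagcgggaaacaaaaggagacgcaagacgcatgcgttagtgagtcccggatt
Ddx50: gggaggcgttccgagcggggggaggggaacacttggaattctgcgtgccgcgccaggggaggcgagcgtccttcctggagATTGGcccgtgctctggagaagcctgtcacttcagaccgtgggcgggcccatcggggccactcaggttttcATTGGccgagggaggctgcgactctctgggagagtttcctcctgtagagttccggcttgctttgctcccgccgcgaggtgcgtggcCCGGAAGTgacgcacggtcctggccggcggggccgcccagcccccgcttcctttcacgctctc

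The Vapa window, at the start of a gene for an endoplasmic reticulum anchor protein, had a G+C content of 75.3% and held 1 E-box. Enrichment over background at its member was 7.94-fold in replicate 1 and 14.1-fold in replicate 2, and the summits lay 80 and 144 bp from the start. The H3f3b window, of a gene for the replacement histone H3.3, held the CCAAT letters 4 times, with a G+C content of 55%. Fold enrichment there was 6.97 in replicate 1 and 14.6 in replicate 2. The Rnf44 window held 1 E-box and 1 CCAAT, and its peak had 6.83 and 13.0. The Tsga10 window held none of the marked letters, at 71% G+C, and its peak had 7.01 in replicate 1 and 12.2 in replicate 2. The Anapc15 and Ddx50 windows each held 1 ETS match close to the start. Anapc15 encodes a subunit of the anaphase-promoting complex and Ddx50 a nucleolar RNA helicase. Their peaks had fold enrichments of 5.97 and 11.7 for Anapc15 and of 5.39 and 12.2 for Ddx50. Both replicates placed these summits within 300 bp of the start shown. For Vapa and H3f3b the promoter table lists this start alone, while the gene table, which includes predicted transcripts, extends the gene's end by 2.91 kb and 1.54 kb beyond it.

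Most members lay inside a gene, and more of them nearer its start than its far end. A total of 1443 members (65.6%) had the summit inside a protein-coding gene and 757 (34.4%) had it outside. The share inside was 58.2% over all shared peaks and 59.4% over shared peaks at gene ends. The strand of the nearest gene, where the promoter table held it, placed 886 members (40.3%) inside the gene nearer its start and 453 (20.6%) upstream. It placed 259 (11.8%) downstream of the far end and 197 (8.95%) inside nearer the far end. These percentages are of all members, also those not placed. The strand was not in the table for 241 members inside and 163 outside, and 1 was at equal distances. Median fold enrichment in replicate 2 was 6.64 inside nearer the start, 5.31 upstream, 5.27 downstream and 5.58 inside nearer the far end. In replicate 1 the same medians were 3.98, 4.06, 3.91 and 3.8. The highest median was thus inside nearer the start in replicate 2 and upstream in replicate 1. Both medians on the start side exceeded both on the far side in replicate 1, by little. In replicate 2 the upstream median was below that inside nearer the far end.

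**Figure D1:**
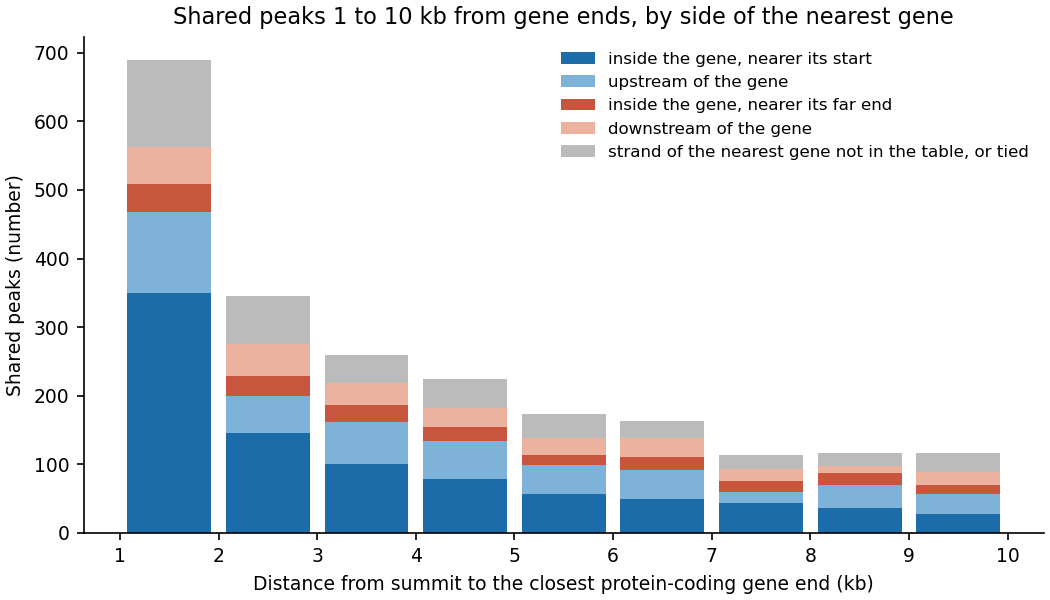
Members by distance of the summit from the closest protein-coding gene end, in bins of 1 kb on the x axis, with their number on the y axis, stacked by their side of the nearest gene. The 1 to 2 kb bin holds 689 members and the 9 to 10 kb bin 116.

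Members thinned out with distance from the gene's end. The 1 to 2 kb bin held 689 (31.3%), the 2 to 3 kb bin 345 and the 9 to 10 kb bin 116, and the median distance was 3265 bp. Median fold enrichment in replicate 2 was 6.91 at 1 to 2 kb and 5.31 at 9 to 10 kb. Replicate 1 gave 3.92 and 4.15 for the same bins, so the replicates differed in the direction of this trend. The share with an annotated start within 500 bp was 25.3% at 1 to 2 kb and 5.36% at 9 to 10 kb.

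Members were weaker than shared peaks at gene ends in replicate 2 and close to them in replicate 1. The enrichment of a peak over background is given as the authors computed it. In replicate 1 members had a median of 3.98 (quartiles 3.39 and 4.79, range 2.13 to 12.8), against 4.2 for peaks at gene ends, 4.16 at ends of other genes, 4.03 deeper inside genes and 4.10 farther out. In replicate 2 members had a median of 5.85 (quartiles 4.52 and 7.71, range 2.27 to 22.5), against 7.71 at gene ends, 6.11 at ends of other genes, and 5.05 both deeper inside genes and farther out. Of members, 36.7% exceeded the median of all shared peaks in replicate 2, against 67.2% at gene ends, 42.9% at ends of other genes, 17.4% deeper inside genes and 15.6% farther out. In replicate 1 the shares were 44.7%, 52.4%, 51.6%, 46.8% and 49.1% in the same order. Both libraries belong to 1 group, so a difference between classes of peak has no test over samples, and only its presence in each library is given.

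**Figure D2:**
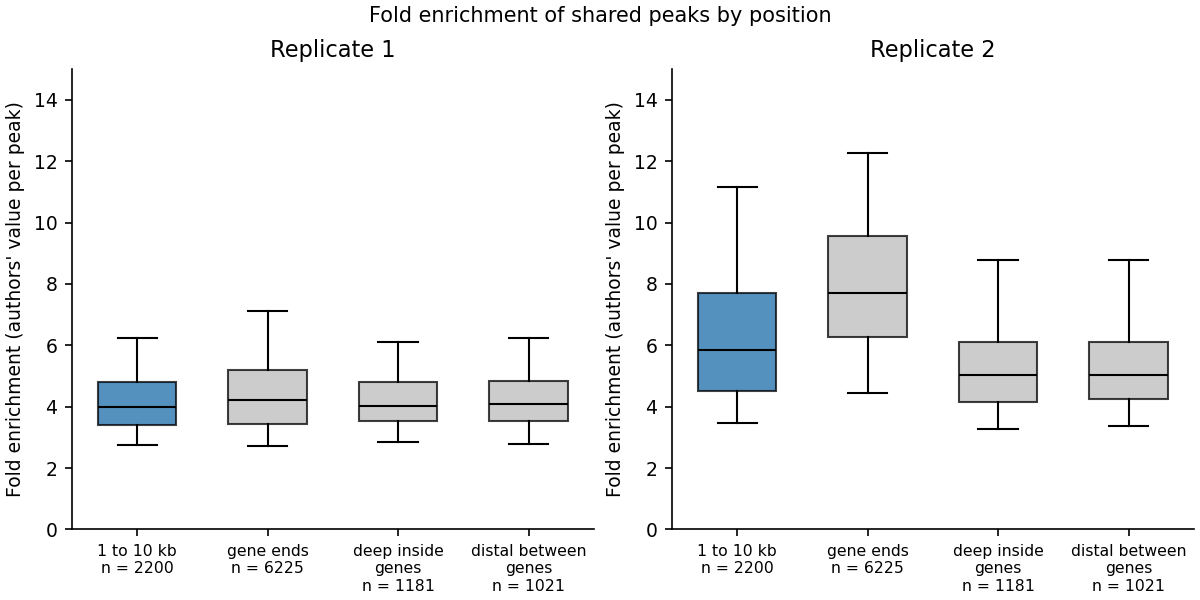
Fold enrichment of members and of 3 other classes of shared peak in each replicate (y axis), without peaks at ends of other genes. Boxes show the quartiles and the median and whiskers the 5th and 95th percentiles. In replicate 2 the members' median of 5.85 lies between 7.71 at gene ends and 5.05 for the classes inside and far from genes.

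By median, members were narrower than peaks at the ends of protein-coding and other genes, and wider than peaks deeper inside genes or farther out, in both replicates. They had a median width of 481 bp in replicate 1, against 647 bp at gene ends, 561 bp at ends of other genes, 454 bp deeper inside genes and 454 bp farther out. In replicate 2 the medians were 947.5 bp for members, 1257 bp at gene ends, 1073 bp at ends of other genes, 732 bp deeper inside and 721 bp farther out. Significance, as the authors' -log10 q, had medians of 4.63 in replicate 1 and 9.84 in replicate 2 for members, against 6.45 and 16.8 at gene ends. Peaks in the top 10% of all shared peaks in both replicates included 35 members (1.59%), against 274 peaks at gene ends (4.40%).

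Position and strength were set side by side between the replicates. Since the rule requires overlapping peaks, closeness of the summits is a description. Of replicate 1 peaks in the same distance band, 83.8% overlapped a replicate 2 peak and so became members, against 89.2% of all replicate 1 peaks. In the other direction 28.2% of the replicate 2 peaks in the band overlapped a replicate 1 peak. The 2 summits of a member were a median of 140 bp apart (quartiles 60 and 295 bp), and 1400 members (63.6%) had them within 200 bp. The replicate 2 summit lay in the same band for 1941 members (88.2%), but within 1000 bp of a gene's end for 232. A replicate 2 peak that contained a protein-coding gene end was the partner of 238 members (10.8%), whereas 20 replicate 1 peaks contained one. Some members also shared a partner, 134 (6.09%) in all.

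Across members, fold enrichment in the replicates had a Spearman coefficient of 0.130, and -log10 q had 0.361. These are descriptions over peaks of the same libraries. Of the 220 members in the top 10% of each replicate, 59 (26.8%) were in both. A rank by fold enrichment therefore depends on the replicate, and peaks described by fold enrichment are given with values from both.

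**Figure D3:**
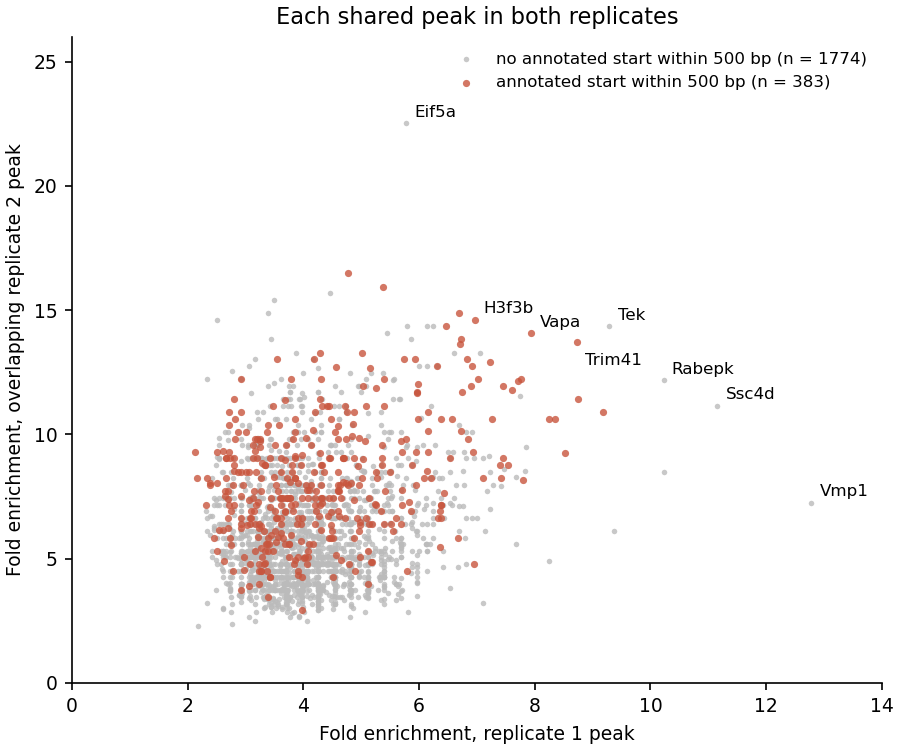
Fold enrichment of each member in replicate 1 and of its partner in replicate 2, with members at an annotated start in red and members on chromosome 18 left out. Tek reaches 9.29 and 14.3, while Vmp1 is highest in replicate 1 at 12.8 and Eif5a in replicate 2 at 22.5.

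Members at an annotated start had higher medians of enrichment and width than the other members in both replicates. The 383 at a start had median fold enrichments of 4.08 in replicate 1 and 7.97 in replicate 2, against 3.98 and 5.45 for the 1774 members without one, chromosome 18 left out. Their median widths were 618 and 1317 bp, against 455 and 842 bp. Median -log10 q was 6.06 and 16.8, against 4.44 and 8.65. With members split by score into 4 equal groups, from low to high, the share at a start was 12.2%, 11.9%, 14.8% and 32.1%. The start belonged to the nearest gene for 344 members and to another gene alone for 39, as for the peak at Anapc15, whose nearest gene end is that of Tomt. In 352 members both summits were within 500 bp of the start, and in 355 the start itself lay over 1000 bp from gene ends. The nearest gene had a single start in the promoter table for 195 of them.

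Viewed from the starts, 431 of 2281 annotated starts in the band (18.9%) had a shared summit within 500 bp, against 35.3% of starts at gene ends (5781 of 16377). Genes with such an internal start numbered 1719. The outer start of a gene is here its end on the start side in the gene table, which includes predicted transcripts. A shared summit was found at an internal start and at the outer start in 90 genes (5.24%). It was found at an internal start alone in 280 (16.3%), at the outer start alone in 258 (15%) and at neither in 1091 (63.5%). Genes with an internal start alone include Vapa and H3f3b, for which the promoter table lists no other start.

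Internal starts with a member had the base composition of gene-end promoters that carry a shared peak. Median G+C content was 63% (quartiles 56% and 68.7%) over 411 internal starts with a member, against 53% over 1850 internal starts without a shared summit. The corresponding medians were 62.7% at gene-end starts with a shared summit and 53.3% at those without. The observed to expected CpG ratio, which is low where methylated cytosines have been lost in evolution, had a median of 0.827 with a member and of 0.313 without. It exceeded 0.6 at 84.4% of internal starts with a member and at 26.2% of those without. At gene ends the shares were 88.1% with and 32.2% without a shared summit. Over all 31396 starts of the table the share was 36.4%.

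**Figure D4:**
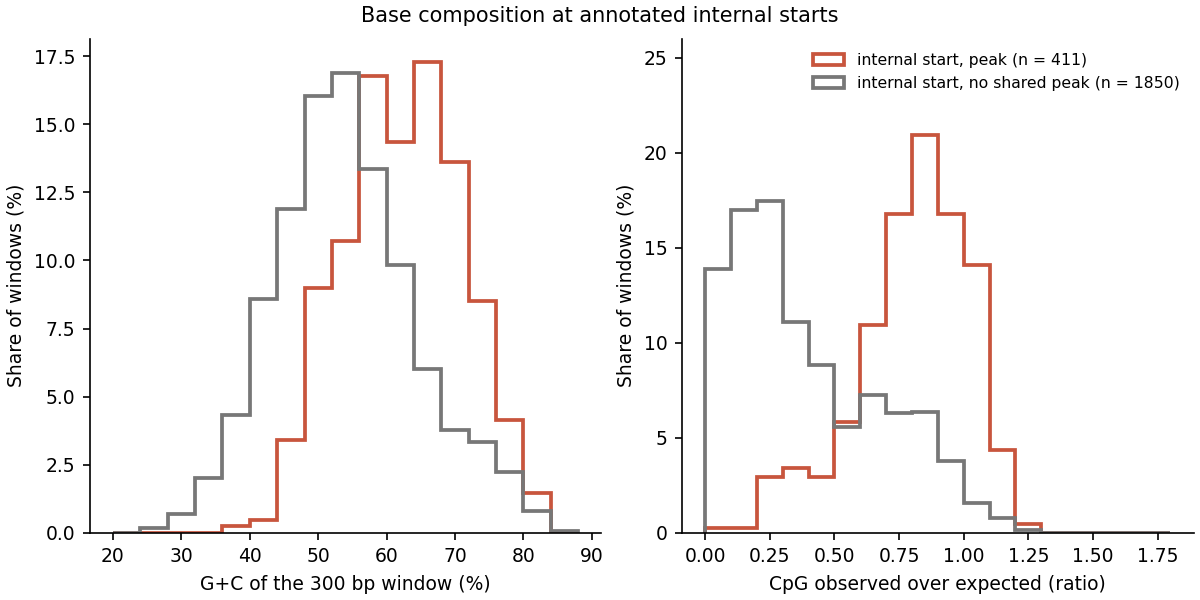
G+C content and observed to expected CpG ratio of the 300 bp windows at annotated internal starts (x axes), as the share of windows (y axes), with a member or without a shared summit. Internal starts with a member lie at a median G+C content of 63%, those without a shared summit at 53%.

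Letters known from CpG-rich promoters were more frequent at internal starts with a member. Each motif was searched on both strands of the window. The ETS letters CCGGAAGT were in 11.4% of windows with a member, in 2.0% of internal windows without a shared summit and in 3.9% of all windows. At gene-end starts the shares were 12% with and 2.4% without a shared summit. The E-box CACGTG was in 14.1% with a member, against 5.2% of internal windows without and 7.1% of all. The GC box GGGCGG was in 66.2%, against 31.2% and 36.0%. The CRE letters TGACGTCA were in 3.9%, against 0.9% and 1.8%, and the YY1 letters AAGATGGCG in 3.6%, against 0.4% and 1.4%. The NRF1 motif was in 2.2%, against 0.3% and 1.0%. Gene-end starts with a shared summit differed from those without in the same direction. There the E-box was in 11.9% and 6.3% and the GC box in 72.0% and 36.4%. The CRE letters were in 4.6% and 1.3%, the YY1 letters in 4.6% and 0.7%, and the NRF1 motif in 3.2% and 0.6%. CCAAT differed little, at 35.3% with a member, 33.5% without and 37.3% of all windows.

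Other letters were less frequent with a member. TATAAA was in 4.1% of windows with a member, against 13.0% of internal windows without a shared summit and 13.6% of all windows. AGATAA, the letters of GATA factors, were in 4.1%, against 12.8% and 11.2%. TGANTCA, those of AP-1, were in 4.1%, against 8.0% and 7.8%, and TGTGGT, those of RUNX factors, in 10.9%, against 17.6% and 16.7%. All 6 motifs that were clearly more frequent with a member contain the dinucleotide CpG, and none of the 4 that were less frequent does. The motif shares therefore move with base composition, whose part in them was not tested.

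Genes near a member often carried a shared peak at an end as well. Of all protein-coding genes, 8.95% were the nearest gene of a member (1850 of 20665) and 33.9% had a shared summit within 1000 bp of an end. Among the 1850 genes with a member, 920 (49.7%) had a shared summit at an end, against 6080 of the 18815 genes with no member (32.3%). Of the bound genes with a member whose strand was in the table, 705 of 767 (91.9%) were bound at the start only. Members at an annotated start differed, since 90 of 383 (23.5%) had a nearest gene bound at an end, against 1006 of 1817 (55.4%) of the other members, which include those on chromosome 18, where starts were not checked. A pair of peaks close to the same gene can share a replicate 2 peak, and 47.3% of members had a nearest gene bound at an end where the replicate 2 summit also lay in the band.

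The highest-scoring member lay in Tek, the gene of the angiopoietin receptor Tie2, which stem cells and endothelium express. This peak, at chr4:94745393-94746872, was enriched 9.29-fold in replicate 1 and 14.3-fold in replicate 2, with its summit 6792 bp inside the gene. The start of Tek was bound too, with 8.78 and 17.4. These were the only peaks of either list over the 135891 bp of the gene and 10 kb on each side. No annotated start of the promoter table lay within 500 bp of the member's summit.

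Of the 12 highest-scoring members, 9 lay at an annotated start and 3 did not. Beside Vapa, H3f3b, Tsga10 and Rnf44, the set holds Trim41, a ubiquitin ligase, with 8.73 and 13.7, and Zc3hav1, an antiviral protein that binds CpG-rich RNA, with 7.22 and 12.9. Cetn3, a centrosomal centrin, had 6.92 and 12.8, and Hlcs, which attaches biotin to carboxylases, had 7.71 and 12.1. Ing1, a reader of methylated histone H3, had 7.77 and 12.2, and Cfl1, the actin-severing cofilin, had 7.05 and 13.3. For Ing1, Cfl1, Zc3hav1 and Trim41 the replicate 2 summit lay 308, 5, 998 and 1000 bp from a gene's end. Replicate 2 alone would thus place these peaks outside the band, the last 2 by a small margin. The replicate 2 partners at Trim41, Zc3hav1, Cfl1 and Ing1 contained a gene end.

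Rabepk, which encodes a Rab9 effector, had the highest-scoring member outside a gene. The peak at chr2:34801715-34803345 lay 2024 bp upstream and had 10.2 in replicate 1 and 12.2 in replicate 2. Ssc4d, a scavenger receptor family gene, had 11.2 in each replicate. Both are high in both libraries.

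Other peaks ranked higher in 1 library than in the other. They were named after their values were seen, as were the other peaks highest in a single replicate. The replicate 1 peak 7707 bp downstream of Slfn2, a schlafen gene, had 10.2, and its partner had 8.50. Evi2b, a myeloid surface protein gene within an intron of Nf1, had 9.37 and 6.12. In replicate 2 the highest values were at Eif5a, a translation factor gene, with 22.5 against 5.78 in replicate 1, and at Sp2, a zinc-finger factor gene, with 16.5 against 4.77. Atxn2l had 15.9 against 5.38, Zbtb7a, a repressor of fetal globin, 15.7 against 4.47, Brpf1, a scaffold of histone acetyltransferases, 15.4 against 3.50, and Midn 14.9 against 3.39. The Eif5a and Brpf1 partners had their summits 456 bp and 117 bp from the gene's end.

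The member with the highest fold enrichment in replicate 1 lay beside the microRNA gene Mir21a. At chr11:86586141-86587761 it had 12.8 in replicate 1, the highest of all members, and 7.25 in replicate 2, at percentile 69.5. It lay 3358 bp inside the far end of Vmp1, an autophagy gene, and 3058 bp upstream of the miR-21 hairpin at chr11:86584067-86584158 on the minus strand. A second member, with 4.26 in replicate 1, lay 1637 bp upstream and overlapped the same replicate 2 peak. A further member, with 3.52 and 4.78, lay 2164 bp downstream. The microRNA is shown because these peaks flank it, from RefSeq on GRCm38.p6, with the seed (bases 2 to 8) in capitals.
mmu-miR-21a-5p: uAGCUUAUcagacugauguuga

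In all, 65 of the 2200 members lay within 10000 bp of 53 microRNA hairpins, 35 of them upstream and 32 within 5000 bp. The share of all shared peaks this close to a hairpin was not counted, so closeness to microRNAs is not read as a trait of members. Among others known from blood cells was Mir23a, where the peak nearest Zswim4 lay 4132 bp away with 4.76 in replicate 1 and 7.97 in replicate 2, followed by Mir142b, where the nearest member lay 5334 bp away with 3.59 and 5.58.

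The 3 widest members in replicate 1 each contained a gene end. Mnt, a repressor that pairs with MAX, had a peak of 3281 bp with 6.28 and 9.55. Csf2ra, the receptor subunit for GM-CSF, had one of 3270 bp with 3.43 and 11.1. A second H3f3b member, downstream of the gene, spanned 3262 bp with 3.62 and 8.50.

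Most genes with a member had a single one, 1566 of 1850, while 233 had 2, 38 had 3, 12 had 4 and 1 had 7. Mcl1, which encodes an anti-apoptotic BCL2 family protein needed by stem cells, had 7. Their fold enrichments were 2.91 to 5.95 in replicate 1 and 3.19 to 13.0 in replicate 2. The gene table, which includes predicted transcripts, gives Mcl1 an outer start. Relative to it, the summits lay at -6215, -5009, -4483, -3133, 1912, 4937 and 11807 bp. No shared summit lay within 1000 bp of either end in that table. The member at 1912 bp, with 5.94 in replicate 1 and 13.0 in replicate 2, was 135 bp from an annotated start, so a start of Mcl1 was bound. A pair of the 7 overlapped the same replicate 2 peak.

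Fos, Gnai2, Pebp4, Rasgef1c and Klf6 were among the genes with 4 members. Fos, an AP-1 subunit, had its strongest member at chr12:85468189-85469371, 5043 bp upstream, with 6.75 and 8.54. The others at Fos had 3.20 to 3.33 in replicate 1. A pair of these shared a replicate 2 peak of 8.24, with its summit 132 bp from the gene's end. Another, 8778 bp from the gene's end, had only 3.20 in replicate 1 and 10.9 in replicate 2. Klf6, a zinc-finger gene induced by serum, had members with 4.003, 5.16, 5.40 and 5.40 in replicate 1. Their replicate 2 values were 12.5, 4.92, 4.78 and 3.36 in the same order. The replicate 2 summit of the first lay 217 bp from the gene's end. Gnai2, a G protein subunit downstream of chemokine receptors, had 6.27 and 8.50 at its strongest member. The other Gnai2 members had 3.58 to 3.65 in replicate 1 and 5.58 to 7.43 in replicate 2.

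The gene lists gave large differences in the share of genes with a member. Each list is read against 8.95% of all protein-coding genes with a member and 33.9% with a shared summit at an end. The lists were chosen with results of these data known, and no list was tested. Genes with a shared summit at an end had a member more often (13.1%) than genes without one (6.81%).

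**Figure D5:**
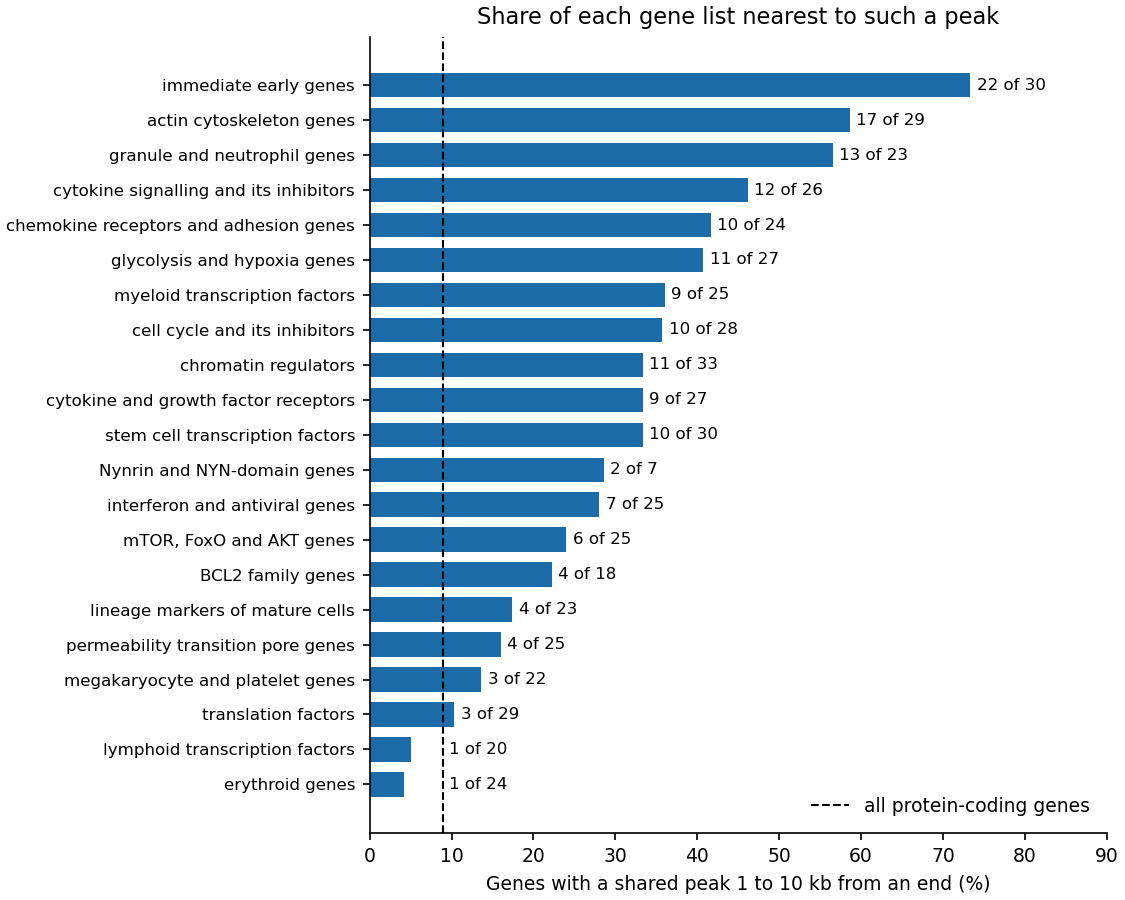
Percent of the genes of each list with a member (bars), with the 8.95% of all protein-coding genes as a dashed line. Immediate early genes have the highest share with a member, 22 of 30, while translation factors have 3 of 29.

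Immediate early genes, which are transcribed within minutes of a stimulus, had a member in 22 of 30 (73.3%) and a shared summit at an end in 22. Their 38 members included Jund with 6.14 in replicate 1 and 14.3 in replicate 2, only 1005 bp from the gene's end. Nr4a1, an orphan nuclear receptor gene, had 5.79 and 14.4 at 7201 bp upstream. Egr2 had 4.69 and 8.08. A member but no shared summit at an end was found at 6 genes, Egr2, Egr3, Mcl1, Myc, Nfkbiz and Nr4a1. Only 2 of the 22 had a member at an annotated start. Translation factors had a shared summit at an end in 28 of 29 (96.6%) and a member in 3 (10.3%), near the share of all genes.

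Actin cytoskeleton genes had a member in 17 of 29 (58.6%), with a shared summit at an end in 22. Actb, the cytoplasmic actin gene, had 2 members with 6.13 and 6.00 in replicate 1 that shared a replicate 2 peak of 12.8. Wasf2, which activates the Arp2/3 complex, had 5.05 and 8.53, and Arpc2, a subunit of that complex, had 4.90 and 8.77.

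Granule and neutrophil genes had a member in 13 of 23 (56.5%) and a shared summit at an end in 10. Ncf1 and Cyba, subunits of the NADPH oxidase, had 4.93 and 7.71 at Ncf1 and 4.78 and 7.17 at Cyba. Fcnb, the granule protein ficolin B, had 5.53 and 6.91, and Ngp, a granule protein of neutrophil precursors, had 4.82 and 6.38. Genes with a member and no shared summit at an end included Chil3, Fcnb, Mpo, Ncf1 and Prtn3. None of the 13 had a member at an annotated start. Erythroid genes had a member in 1 of 24, Klf1, with 3.83 and 6.11, and a shared summit at an end in 7. Megakaryocyte and platelet genes had a member in 3 of 22, and marker genes of mature lineages in 4 of 23.

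Stem cell transcription factors had a member in 10 of 30 (33.3%), 8 of them with no shared summit at an end. These 8 were Bcl11a, Erg, Fli1, Gfi1, Ldb1, Lyl1, Myc and Runx3. Of the 10, 2 had a member at an annotated start, Gfi1 and Ldb1. Hhex, a homeobox gene, had 4.26 and 6.11, Runx3 had 5.003 and 4.52, and Gfi1, a repressor that restrains stem cell cycling, had 3.37 and 5.58. Myc had 3.77 and 5.58, and Nfe2 had 4.15 and 4.52 at its highest-scoring member. Myeloid transcription factors had a member in 9 of 25, with a shared summit at an end in 13. Nfil3, a bZIP repressor, had 5.95 and 7.97. Lymphoid transcription factors had a member in 1 of 20, Tcf4.

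Cytokine signalling genes had a member in 12 of 26 (46.2%), and cytokine receptors in 9 of 27. Sh2b3, the adaptor that restrains thrombopoietin signalling, had 5.99 and 10.6. Stat5a had 4.48 and 6.33 with an annotated start 52 bp from the summit. Pim1, a kinase gene induced by STAT5, had members with 6.80 and 5.85 and with 3.86 and 10.6. Of the 12 genes, 6 had a member at an annotated start. Chemokine receptor and adhesion genes had a member in 10 of 24, among them Itgb2, the common chain of leukocyte integrins, with 5.47 and 6.91. Ifnar2, on the list of cytokine receptors, had 4.71 and 7.17. Interferon and antiviral genes had a member in 7 of 25, among them Irf2 with 5.40 and 6.91.

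BCL2 family genes had a member in 4 of 18, and none of the 4 had a shared summit at an end, while 7 other genes of the family did. Of the 4, however, 3 had a member at an annotated start. Bcl2l1, which encodes the survival protein BCL-XL, had 7.39 and 8.77 with an annotated start 78 bp from the summit. Bbc3, which encodes the p53 target PUMA, had members with 4.2 and 6.38 and with 3.85 and 9.03. Mcl1 and Bmf were the others. Permeability transition pore genes, a list tied to the mitochondrial channel, had a member in 4 of 25 and a shared summit at an end in 18 (72%). Apart from Bcl2l1, the members had values of 3.52 and 5.85 and 3.84 and 4.52 at Hk2, 3.79 and 5.58 at Atpif1, and 3.54 and 3.72 at Atp5o.

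Cell cycle genes had a member in 10 of 28, among them Trp53 with 6.20 and 11.1 and Cdkn1a, the p21 inhibitor gene, with 5.11 and 9.95. Chromatin regulators had a member in 11 of 33 and a shared summit at an end in 21. Kdm6b, a histone H3 lysine demethylase, had 5.08 and 12.2, Ep300, an acetyltransferase, 4.996 and 11.7, and Arid1a, a BAF complex subunit, 5.49 and 8.50. Glycolysis and hypoxia genes had a member in 11 of 27, with 5.39 and 10.1 at Aldoa and 4.75 and 9.03 at Gapdh. Genes of the mTOR, FoxO and AKT pathways had a member in 6 of 25, among them Foxo3, a forkhead factor gene, with 7.42 and 7.93. Among Nynrin and other NYN-domain genes, N4bp1 and Zc3h12a, an RNase that degrades inflammatory transcripts, had members with 4.27 and 5.85 and with 2.67 and 4.03. Nynrin itself had none.

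Where replicate 2 summits also had to lie in the band, immediate early genes with a member numbered 19, granule genes 12 and actin genes 12, against 7.95% of all genes. Where -log10 q had to reach 5 in both replicates, they numbered 17, 6 and 11, against 3.91% of all genes. Cytokine signalling genes numbered 5 and 4 under these rules, against 12 under the rule as given. Stem cell transcription factors numbered 10 and 2, against 10 under the rule as given, and chemokine receptor and adhesion genes 8 and 3, against 10. Both rules were added after the values were seen.

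At the inner bound, the members just inside were nearest Gadd45g, a growth arrest gene, at 1002 bp with 4.04 and 7.71, and Slc27a2, at 1002 bp with 3.52 and 3.72. Just outside lay Srsf1 at 999 bp with 4.82 and 8.29 and Chst12 at 1000 bp with 3.35 and 11.4. At the outer bound, the members just inside were nearest Glrp1 at 9977 bp with 3.98 and 2.92 and Hk2 at 9978 bp with 3.52 and 5.85. Just outside lay Alg8 at 10013 bp with 3.69 and 3.71 and Bnip3 at 10016 bp with 2.54 and 8.25. Replicate 1 values just inside and just outside overlapped at the inner bound, while replicate 2 values did not. Members per chromosome made up 15.8% of shared peaks on chromosome 13 to 23.7% on chromosome 11, which held 243.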

How the data were processed

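Flag ChIP and input libraries of lineage-negative bone marrow cells were made from 10 ng of DNA after fixation in 1% formaldehyde, with 16 PCR cycles, per the labels' protocols. The authors deposited 1 peak list per Flag ChIP replicate. MACS2, Bowtie2, Trimmomatic, cutadapt, FastQC and ChIPseeker and the build mm10 are named in the submitters' processing notes without versions. Each deposited peak has a fold enrichment, a ratio over background, a -log10 p and a -log10 q, and a score that rescales the q-value. How the input libraries entered the peak calls is not given in the sources used here. These values were used only to describe and rank peaks within a list.

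Gene ends came from the RefSeq gene table (GRCm38.p6, the build mm10 is based on), which covers predicted transcripts and gives no strand. Strand and starts came from the RefSeq promoter table, which held 16457 of 20665 protein-coding genes (79.6%) and was not used for chromosome 18. Summits were placed and overlaps counted with Python 3.11.15, numpy 2.4.6 and pandas 2.3.3, and the steps were tested on 2000 simulated peaks. The partner of a member is the replicate 2 peak with most shared bases. Members, gene lists and rules were chosen with earlier results of these data known. Named peaks are the 12 highest scores, the 3 widest, those next to the bounds, up to 4 per list, and those of the 6 genes with most members. Intervals are exact binomial or order-statistic ones at 95% and cover counting error only.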

Additional observations from a re-analysis of the deposited data

Results flagged for a closer look

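Chromosome X was outside the rule, and 7 shared peaks there met the same distances, above the 3 that a count of 0 allows, while Y had 0. They are nearest Otud5, Elf4, Flna, Yipf6, Taf1, Huwe1 and Tmsb4x, of 61 shared peaks on X and Y, and were enriched 3.10- to 4.96-fold in replicate 1, against 4.86- to 6.90-fold in replicate 2.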

How the results depend on the processing

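No paired analysis was possible because the 2 Flag ChIP libraries form 1 group and no result comes from a test. Of 73 alternative values, 34 stayed within the interval of the main value (a count, within 1.5 times it) and 39 moved. The 2200 members became 866 where -log10 q reached 5 in each replicate, 342 with fold enrichment of at least 5, 1048 with an overlap of 50% of both peaks and 1400 with summits within 200 bp. They ranged from 2626 without replicate 2 to 7000 without replicate 1. In the same order (q, fold enrichment, 50% overlap), the share inside a gene was 70.9%, 72.5% and 61.7%. It was 61.0% with an inner bound of 2000 bp, 68.8% with an outer bound of 5000 bp, 62.9% with other genes' ends not considered, and 61.8% to 64.8% with a replicate left out. The share whose nearest gene had a shared peak at an end was 30.3%, 14.9% and 24.3% in that order. It was 33.6% with summits within 200 bp, 45.9% for replicate 2 peaks and 47.3% with the partner in the band, where all genes gave 22.6%, 10.2%, 19.1%, 25.9%, 33.8% and 33.9% in turn. It was 50.8% without replicate 2 and 67.3% without replicate 1, where all genes gave 34.2% and 47.3%. Median fold enrichment in replicate 1 was 4.84, 5.78 and 4.26 in that order, 4.06 with summits within 200 bp and 3.95 with replicate 2 left out. In replicate 2 it was 7.25, 7.97 and 5.58, also 5.58 for replicate 2 peaks, for the partner in the band and with the 2000 bp bound, 6.11 with the 5000 bp bound and 4.25 with replicate 1 left out. Median -log10 q in replicate 1 was 7.44, 10.7 and 5.35, 5.001 with summits within 200 bp and 4.27 with replicate 2 left out. The share at an annotated start was 14.3% within 250 bp, 21.3% within 1000 bp and 27.2% with the q rule, all added after seeing the data. List counts stayed within 1.5 times for 18 of 21 lists with the partner in the band and for 4 with the q rule, where fewer peaks enter. Peak lists without depth limit any statement on peaks not called.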
